A study of Bos taurus with 4 samples.

Results

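ITGAL, CD84, CD37, SEMA4B, TREM1, IL1R1 and IFNGR2 encode receptors of the leukocyte surface, and IRAK4 encodes a kinase that is recruited to such receptors. These 8 genes were followed in blood neutrophils of cows around calving. They were chosen by gene name: the platform annotation, with symbols updated by gene ID, gives each of them 1 element of 3 consecutive spots, which makes 8 of the 1296 elements of the array and 24 of its 3888 spots. The log ratios of all 4 arrays were known when the genes were chosen. Every value below therefore describes the 8 genes, and none is offered as a test of them.

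Total RNA of neutrophils from 4 parturient cows was pooled at each of 4 times, a week before calving (day -7), at calving (day 0), and 0.25 days and 1 day after it. The pools were joined by 4 two-channel cDNA arrays in a closed loop. Array A set day 0.25 (channel 1) over day -7 (channel 2). Array B set day 1 over day 0, array C set day -7 over day 1, and array D closed the loop with day 0 over day 0.25. No treatment is named, all animals were parturient, and the day -7 pool is the only one from before calving. For breed, age, parity, the purity of the cells and whether each pool held the same animals, nothing is given in the sources used here.

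There was 1 pool per day, so an error below measures the spread of spots or arrays and not the spread between cows. The deposited ratios of the 8 genes ran only from 0.8009 to 1.0728 over 96 spot values. Neither the numerator nor any transformation behind these ratios is stated, and signs below are those of channel 1 over channel 2 if every array runs that way. No pool is therefore called higher or lower, and the size of a ratio is not a fold change of a transcript. In pooled cells, fewer cells that carry a transcript and less transcript per cell cannot be told apart. None of the 25 listed neutrophil markers was among the 444 genes named on the array, nor any of the 22 markers of T and NK cells, 13 of monocytes and dendritic cells, 11 of eosinophils and basophils or 13 of platelets and erythroid cells. The labelled cell type could therefore not be checked. Of 11 B cell markers the B cell receptor chain CD79B was named, with log2 ratios of -0.0037, -0.0051, 0.022 and 0.012 on arrays A to D.

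Neutrophils leave the blood by rolling, firm adhesion and migration, and firm adhesion rests on integrins that bind ligands of the vessel wall. ITGAL is the alpha chain of LFA-1, the integrin of leukocytes that binds ICAM-1. CD84 is a receptor of the SLAM family that binds itself on a neighbouring cell, CD37 is a tetraspanin that organises other membrane proteins, and SEMA4B is a transmembrane semaphorin, a class of ligands that bind plexins. The other 4 genes act in inflammatory signalling. TREM1 is an activating receptor of myeloid cells that signals through the adaptor DAP12, IL1R1 is the signalling receptor of interleukin-1, IRAK4 is the kinase recruited through MyD88 to the interleukin-1 and Toll-like receptors, and IFNGR2 is the signal-transducing chain of the interferon-gamma receptor.

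The contact receptors ITGAL, CD84, CD37 and SEMA4B had negative log2 ratios on array A, and IFNGR2 and TREM1 had positive ones on the same array. Both sides lie on 1 array, so they stand opposite each other whichever channel is the numerator. IL1R1 and IRAK4 lay between them, on the negative side. TREM1 was near the median, with spots on both sides of it, and 43.2% of elements on array A lay farther away. The 4 contact receptors lay between -0.14 and -0.09 there, and on the other 3 arrays no gene of the 8 went beyond -0.015 or 0.041. All log2 ratios are given with the median element of the array at 0.

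**Figure D1:**
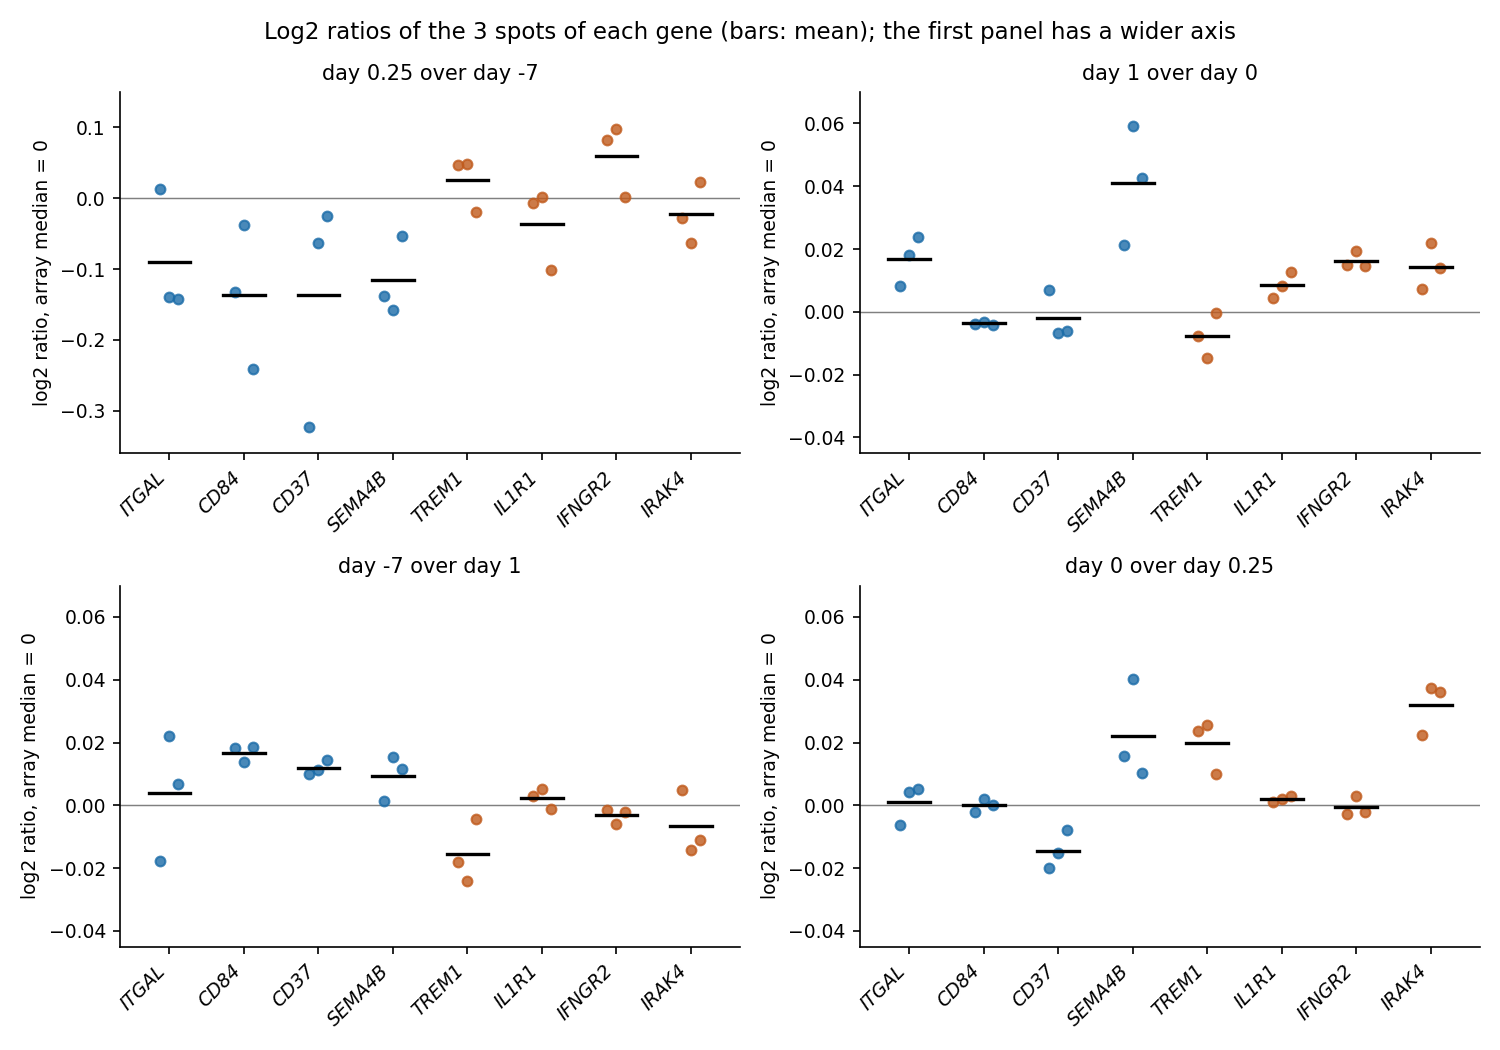
Log2 ratios of the 3 spots (points) and their mean (bar) for each of the 8 genes on arrays A to D, one panel per array, with the array median at 0 and a wider axis in the first panel. Contact receptors are blue and the cytokine and activating receptors with IRAK4 are orange; the spots of CD37 on array A run from -0.32 to -0.025, while its spots on array C run from 0.0099 to 0.015.

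The 3 spots of ITGAL read 0.013, -0.14 and -0.14 on array A, a mean of -0.09 ± 0.089 (SD, n = 3 spots). One spot thus stood at the array median and the other pair well below it. On array B the spots read 0.0083, 0.018 and 0.024, with a mean of 0.017 ± 0.0078 (SD). The means on array C and array D were 0.0038 ± 0.020 and 0.001 ± 0.0063 (SD), with spots on both sides of 0.

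CD84 had spots of -0.13, -0.038 and -0.24 on array A, with a mean of -0.14 ± 0.10 (SD, n = 3 spots). All lay below the array median but were far apart, and 94.3% of elements had a smaller SD between their spots. On array B the same gene read -0.0038, -0.0031 and -0.0041, and only 0.386% of elements had a smaller SD. The spots read 0.018, 0.014 and 0.019 on array C, a mean of 0.017 ± 0.0026 (SD). On array D they lay at the array median, from -0.0021 to 0.002.

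On array A, CD37 had the widest spread of the 8 between its spots, which read -0.32, -0.064 and -0.025, a mean of -0.14 ± 0.16 (SD, n = 3 spots) and a median of -0.064. Its SD exceeded that of 97.9% of elements. The mean was -0.002 ± 0.0078 on array B, 0.012 ± 0.0024 on array C and -0.014 ± 0.0061 on array D (SD). CD37 is abundant on B cells, and 1 of the 11 B cell markers could be read: CD79B stood at -0.0037 on array A. The part of B cells in the ratio of CD37 was not tested.

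SEMA4B was the contact receptor whose spots lay on 1 side of the median on every array. They read -0.14, -0.16 and -0.053 on array A, with a mean of -0.12 ± 0.056 (SD, n = 3 spots). On array B they read 0.021, 0.059 and 0.043, and the mean of 0.041 ± 0.019 (SD) was above that of 98.3% of elements. The spots of array D read 0.016, 0.04 and 0.01, a mean of 0.022 ± 0.016 (SD). Those of array C read 0.0014, 0.015 and 0.012, a mean of 0.0094 ± 0.0072 (SD).

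Of the activating receptors, TREM1 read 0.047, 0.049 and -0.02 on array A, a mean of 0.025 ± 0.039 (SD, n = 3 spots). Its spots straddled the median there, but agreed in sign on each of the other arrays. They read 0.024, 0.026 and 0.01 on array D, where the mean of 0.02 ± 0.0084 (SD) was above that of 92.2% of elements. The mean was -0.0076 ± 0.0071 on array B and -0.015 ± 0.010 on array C (SD).

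IFNGR2 read 0.082, 0.098 and 0.0012 on array A, a mean of 0.06 ± 0.052 (SD, n = 3 spots) and above 95.1% of elements. It was the highest of the 8 on that array, again with 1 spot at the median. On array B the spots were close together at 0.015, 0.019 and 0.015, a mean of 0.016 ± 0.0026 (SD). On array C and array D the means were -0.0032 ± 0.0024 and -0.00063 ± 0.0031 (SD).

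IL1R1 showed a single spot away from the median. Its spots read -0.0063, 0.0012 and -0.1 on array A, a mean of -0.036 ± 0.058 (SD, n = 3 spots) and a median of -0.0063. The other 3 arrays gave 0.0085 ± 0.0042, 0.0023 ± 0.0032 and 0.002 ± 0.001 (SD) for array B, array C and array D. On each array at least 30.4% of elements lay farther from the array median than IL1R1 did.

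IRAK4, which acts behind IL1R1, differed from the rest in where its largest ratio lay. Its spots read 0.022, 0.037 and 0.036 on array D, a mean of 0.032 ± 0.0083 (SD, n = 3 spots) that exceeded 97.2% of elements. On array A they read -0.028, -0.064 and 0.023, and the mean of -0.023 was within their SD of 0.043. The spots of array B read 0.0073, 0.022 and 0.014, a mean of 0.014 ± 0.0073 (SD). On array C the mean was -0.0067 ± 0.010 (SD).

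The 8 genes were therefore uneven in precision between the arrays. On array A the SD between spots exceeded the median over elements of 0.024 in 8 of the 8 genes and ran from 0.039 for TREM1 to 0.16 for CD37. On the other arrays 1, 3 and 1 of the 8 exceeded the median over elements, which was 0.012 for array B, 0.0087 for array C and 0.0089 for array D. The median size of the 8 log2 ratios was 0.075 on array A, against 0.021 over all elements. It was 0.011 against 0.0096 on array B, 0.0081 against 0.019 on array C and 0.0082 against 0.0086 on array D. Array A, where the 8 ratios were widest, was thus also the array on which their spots lay farthest apart. The 3 spots had 1 sign in 4, 7, 5 and 5 of the 8 genes on arrays A to D, and in 48.3%, 46.5%, 69.5% and 49.1% of all elements.

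**Figure D2:**
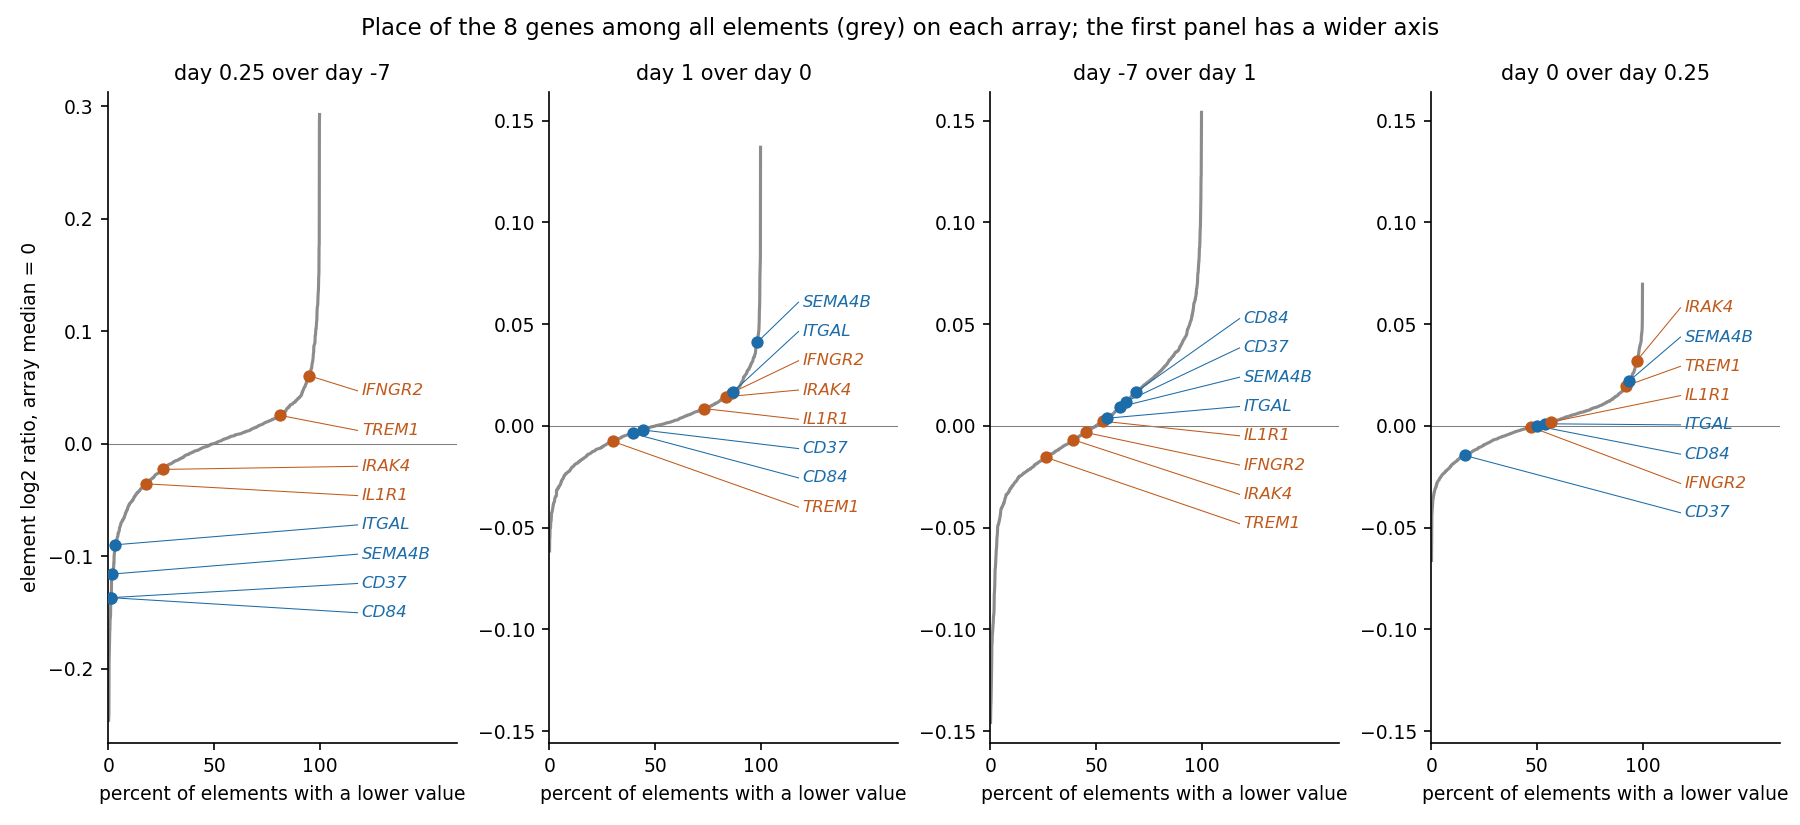
Element log2 ratio (vertical axis, array median at 0) against the percentage of elements with a lower value, one panel per array, with all elements in grey and the 8 genes as coloured points (contact receptors blue, the others orange); the first panel has a wider vertical axis. On array A CD37, CD84, SEMA4B and ITGAL have 1.16%, 1.24%, 1.85% and 3.24% of elements below them, while on array C all 8 genes lie between 26.2% and 69.1%.

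Each array was also tested alone over the 3 spots of its elements with limma, which measures only the spread of spots on that array. On array C, 42.2% of 1296 elements passed a Benjamini-Hochberg adjusted p of 0.05, and 1 of the 8 genes did, CD84. When the median of the 27 surrounding elements was subtracted from each value, TREM1 and IFNGR2 passed on this array and CD84 did not. On array A and on array D, 0% of elements passed and none of the 8. On array B the share was 0.0772%, again with none of the 8. At an unadjusted p below 0.05 2, 4, 2 and 4 of the 8 genes passed on arrays A to D, where 19.6%, 19.6%, 52.7% and 23.3% of all elements did.

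The loop allows each difference between pools to be estimated from all 4 arrays, here with limma across 1295 elements that had a value on every array. The array that joins 2 pools directly has a weight of 0.75 and the other 3 have 0.25 each. Day 0 and day -7, like day 1 and day 0.25, share no array, and each of the 4 arrays then has a weight of 0.5. Array A, with the widest ratios for these genes, thus enters every difference.

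For day 0.25 minus day -7 the fitted log2 differences of the contact receptors were -0.073 ± 0.024 for ITGAL, -0.11 ± 0.027 for CD84, -0.10 ± 0.028 for CD37 and -0.11 ± 0.023 for SEMA4B (SE). Those of the other genes were 0.042 ± 0.024 for IFNGR2, 0.02 ± 0.022 for TREM1, -0.03 ± 0.022 for IL1R1 and -0.027 ± 0.022 for IRAK4 (SE). The median of the 8 was -0.051 and that of all elements -0.00064. The SE of this fit, here and below, is moderated over all elements and takes the 4 arrays as equally precise. On array A alone the SE over spots was larger, at 0.0515 for ITGAL, 0.0586 for CD84, 0.0938 for CD37 and 0.0322 for SEMA4B. In this comparison 2.01% of 1295 elements passed an adjusted p of 0.05, and 1 of the 8 genes did, SEMA4B. At an unadjusted p below 0.05 there were 12.1% of elements and 4 of the 8 genes, the contact receptors. The genes were chosen with these values known, so the counts are given without a reading. Whether SEMA4B passed changed with the setting: it did not pass without centring, with the arrays scaled or weighted by their spread, with the local median subtracted, with the sign of any array but array B turned, or without the second or the third spot. Its difference was 0.069 with the sign of array A turned and -0.073 when that array was left out.

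For day 0 minus day -7 the contact receptors again had negative differences, of -0.055 ± 0.027 for ITGAL, -0.075 ± 0.031 for CD84, -0.081 ± 0.033 for CD37 and -0.072 ± 0.026 for SEMA4B (SE). TREM1 stood at 0.034 ± 0.026, IFNGR2 at 0.023 ± 0.028, IL1R1 at -0.022 ± 0.026 and IRAK4 at 0.00067 ± 0.026 (SE). None of the 8 passed an adjusted p of 0.05, where 0.309% of elements did, and 3 of the 8 had an unadjusted p below 0.05, where 6.02% of elements did. This comparison and the previous one share the day -7 pool and use the same 4 arrays, so their likeness is no second observation. One route from day -7 to day 0 runs through the day 0.25 pool and the other through the day 1 pool. By the first, ITGAL, CD84, CD37 and SEMA4B came to -0.089, -0.14, -0.15 and -0.094. By the second they came to -0.021, -0.013, -0.0098 and -0.05. The route that avoids array A gave the smaller size for each of the 4 genes. For IFNGR2 the routes differed in sign, at 0.06 and -0.013, and for TREM1 they gave 0.045 and 0.023.

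For day 1 minus day -7 the differences ran from -0.048 ± 0.027 for CD84 to 0.021 ± 0.024 for IFNGR2 (SE), with 5 negative and 3 positive. CD37 stood at -0.047 ± 0.028, ITGAL at -0.021 ± 0.024 and SEMA4B at -0.02 ± 0.023 (SE). TREM1 stood at 0.021 ± 0.022, IRAK4 at 0.011 ± 0.022 and IL1R1 at -0.0081 ± 0.022 (SE). None of the 8 had an adjusted or an unadjusted p below 0.05, where 0.309% and 5.64% of elements did. On array C, which joins these pools, the values turned to day 1 minus day -7 were -0.017 for CD84, -0.012 for CD37, -0.0038 for ITGAL and -0.0094 for SEMA4B.

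Among the later pools, day 1 minus day 0.25 gave 0.085 ± 0.026 for SEMA4B, 0.058 ± 0.031 for CD84, 0.054 ± 0.033 for CD37 and 0.052 ± 0.027 for ITGAL (SE). IRAK4 stood at 0.038 ± 0.026, IL1R1 at 0.022 ± 0.026, TREM1 at 0.0012 ± 0.026 and IFNGR2 at -0.021 ± 0.028 (SE). Without array A the same difference was 0.063 for SEMA4B and 0.018 for ITGAL. It turned negative for CD84, at -0.0037, and for CD37, and positive for IFNGR2, at 0.016. Day 1 minus day 0 gave 0.052 ± 0.023 for SEMA4B (SE), and the other 7 genes lay from -0.013 to 0.034. SEMA4B also stood highest of the 8 on array B, which joins these pools, at 0.041. Day 0.25 minus day 0 gave values from -0.033 for SEMA4B to 0.019 for IFNGR2, with 7 of 8 negative. Of all elements 48.6% were negative. Array D joins these pools, and its values were turned to day 0.25 minus day 0. They were -0.032 for IRAK4, the largest in size of the 8, -0.022 for SEMA4B and -0.02 for TREM1. ITGAL and IL1R1 stood at -0.001 and -0.002, CD84 at 1.7e-06, IFNGR2 at 0.00063 and CD37 at 0.0145. In each of these comparisons 0% of elements and none of the 8 genes passed an adjusted p of 0.05. The shares of elements with an unadjusted p below 0.05 were 3.24%, 0.463% and 0.309% for day 1 minus day 0.25, day 1 minus day 0 and day 0.25 minus day 0, with 1, 1 and 0 of the 8 genes, SEMA4B in both cases. For any difference among the 4 pools the F test of limma passed 0.541% of elements and none of the 8 at an adjusted p of 0.05, and 7.18% of elements and 3 of the 8, CD84, CD37 and SEMA4B, at an unadjusted p below 0.05.

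**Figure D3:**
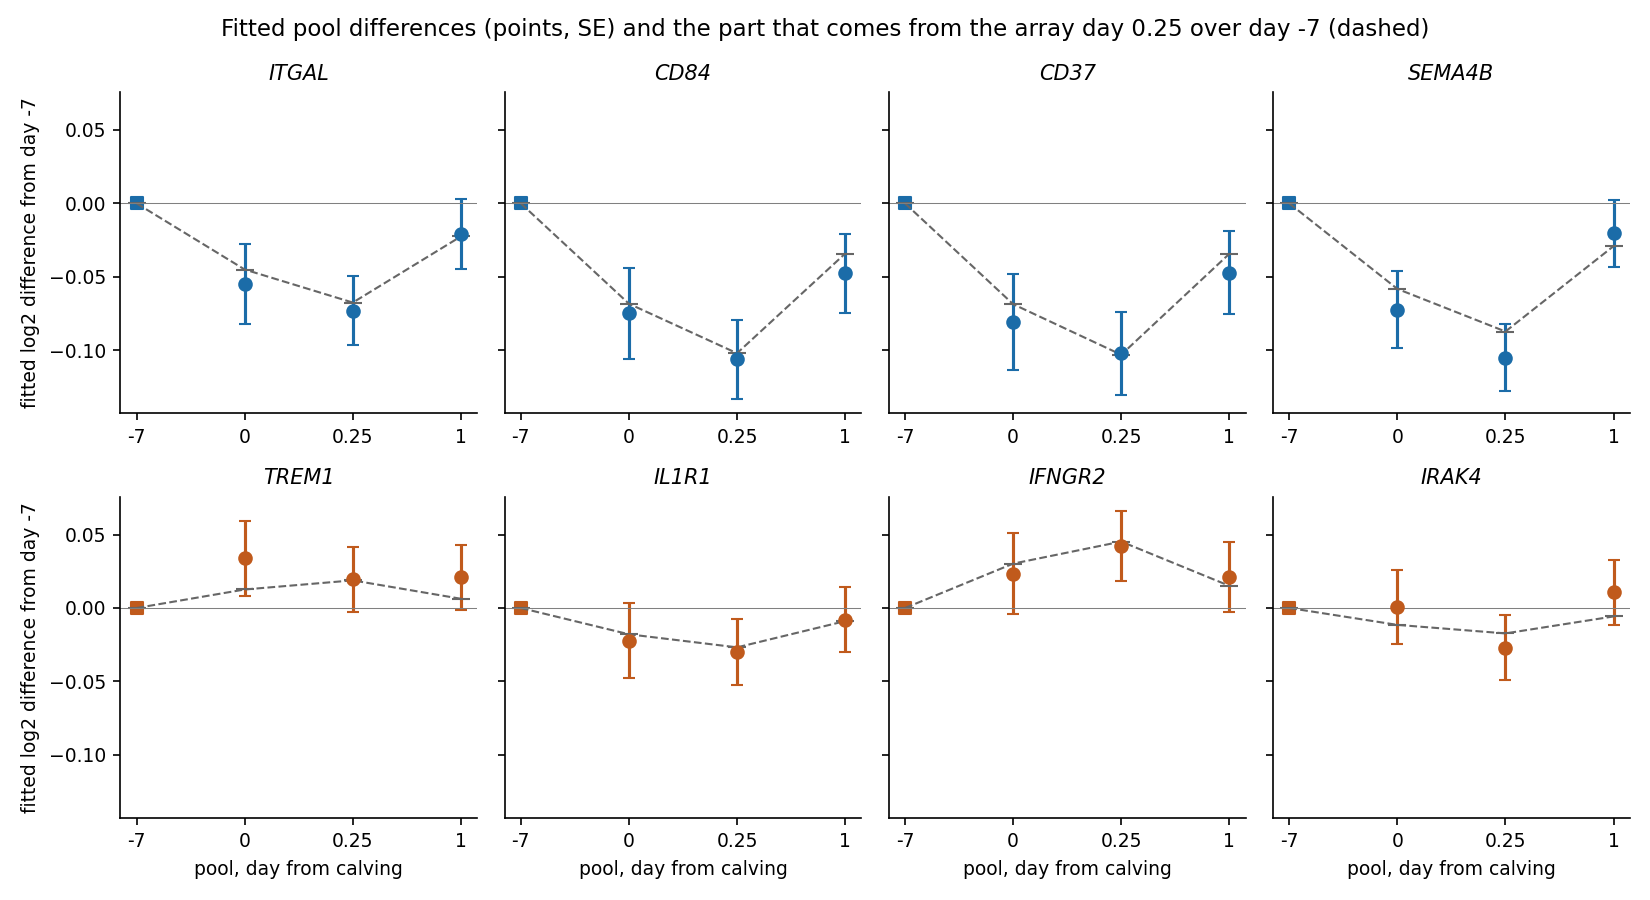
Fitted log2 difference of each pool from day -7 (points, with SE bars; the day -7 square is 0 by definition) for the 8 genes, and the part of each difference that comes from array A, day 0.25 over day -7 (dashed). For CD37 the part from that array is -0.069, -0.10 and -0.034 for days 0, 0.25 and 1, against fitted values of -0.081, -0.10 and -0.047.

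Ranked by their fitted values, with every array taken as channel 1 over channel 2, ITGAL, CD84, CD37, SEMA4B and IL1R1 had the pools in 1 order, with day -7 first, then day 1, day 0 and day 0.25. IFNGR2 had them in the exact reverse. These orders were found in 15% and 11.4% of 1295 elements. They are also what the weights give when array A is the only array with a ratio away from 0, since it enters the differences of days 0.25, 0 and 1 with 0.75, 0.5 and 0.25. For ITGAL that array supplied -0.068 of -0.073 at day 0.25, -0.045 of -0.055 at day 0 and -0.023 of -0.021 at day 1. For SEMA4B it supplied -0.087 of -0.11, -0.058 of -0.072 and -0.029 of -0.02. Neighbours in the order were close: among the contact receptors the gap between neighbouring pools was 0.74 to 1.8 times its SE for ITGAL, CD84 and CD37. For SEMA4B the gap between day 1 and day 0 was 2.3 times its SE, and the other 2 gaps were 0.9 and 1.5 times. TREM1 had the order day 0, day 1, day 0.25, day -7 and IRAK4 the order day 1, day 0, day -7, day 0.25, with every gap at most 1.2 times its SE. The orders depend on the unstated direction of the ratios. With array A turned in sign, ITGAL, CD84, CD37, SEMA4B and IL1R1 had the reverse order, which 15.2% of elements then had, and IFNGR2 had the order with day -7 first. With array B, C or D turned, 6, 6 and 5 of the 8 genes had the order given, among them ITGAL, CD84, CD37, IL1R1 and IFNGR2 each time.

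Each difference could also be read along the loop without its direct array. For day 0.25 minus day -7 the direct array gave -0.12 for SEMA4B and the other 3 arrays together gave -0.073. SEMA4B and IRAK4 (-0.023 and -0.04) were the genes of the 8 with the largest values from the other 3 arrays. CD84 had -0.14 directly and -0.013 along the other arrays, ITGAL -0.09 and -0.022, and IL1R1 -0.036 and -0.013. The sign differed between the readings for CD37, at -0.14 and 0.0047, and for IFNGR2, at 0.06 and -0.012. TREM1 had 0.025 and 0.0033. The sum of the 4 ratios around the loop, which is 0 where the ratios agree, was -0.14 ± 0.094 for CD37, -0.12 ± 0.059 for CD84, -0.069 ± 0.053 for ITGAL and 0.073 ± 0.030 for IFNGR2 (SE over spots). It was -0.044 ± 0.036 for SEMA4B, 0.022 ± 0.024 for TREM1, -0.023 ± 0.033 for IL1R1 and 0.016 ± 0.026 for IRAK4. The median size over 1295 elements was 0.038. Larger sums than those of CD37 and CD84 were found in 3.01% and 5.48% of elements, and 43.1% to 74.2% had larger sums than SEMA4B, TREM1, IL1R1 and IRAK4. These readings and sums also take every array as channel 1 over channel 2. With array A turned in sign the sum of SEMA4B was 0.19, and 2.24% of elements had a larger one. With array B, C or D turned it was -0.13, -0.063 and -0.088, and 3.78%, 20.4% and 9.96% had larger ones. The sums of CD37 and CD84 stayed among the larger ones under each of these turns, with at most 6.41% and 4.71% of elements above them.

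**Figure D4:**
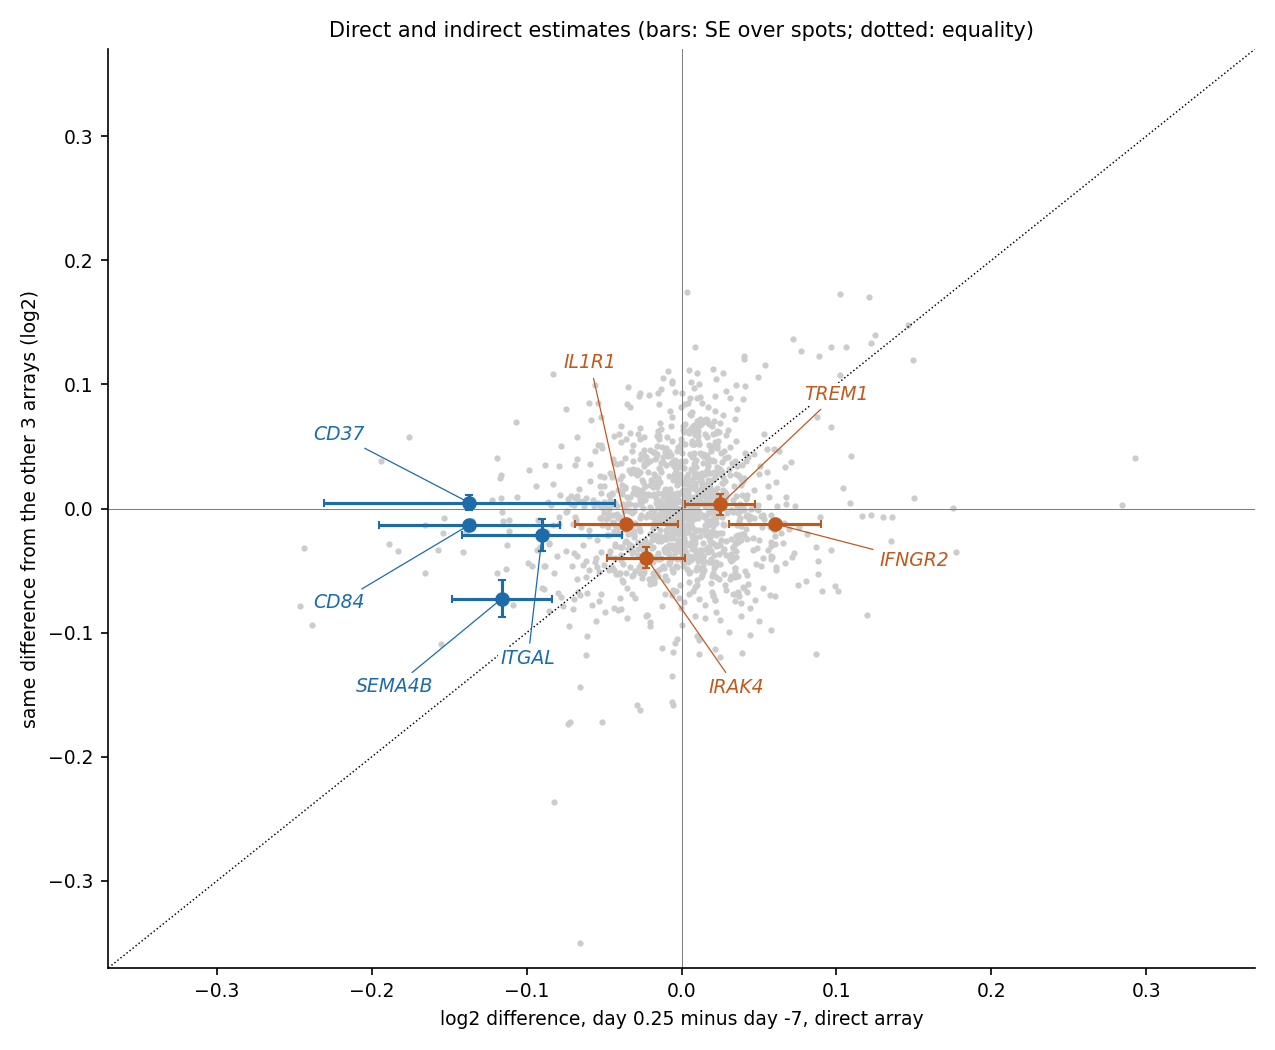
Log2 difference of day 0.25 minus day -7 from the direct array (horizontal axis) and from the other 3 arrays (vertical axis) for all elements (grey) and the 8 genes (contact receptors blue, the others orange; bars are SE over spots, the dotted line is equality). SEMA4B, at -0.12 and -0.073, lies away from 0 on both axes, while CD84 and CD37 lie at -0.14 on the horizontal axis and at -0.013 and 0.0047 on the vertical one.

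Closeness of pattern was measured as the Euclidean distance over the 4 log2 ratios, for the 3 genes with the largest root mean square ratio: CD37, CD84 and SEMA4B. The named gene nearest to both CD37 and CD84 was CASP4, an inflammatory caspase, at distances of 0.012 and 0.0063, and CD37 and CD84 were each second nearest to the other, at 0.015. The median distance to the 442 other named genes was 0.14 for each. CASP4 read -0.14, 0.00011, 0.013 and -0.0029 on the 4 arrays. On array A the SE over spots was 0.0938 for CD37 and 0.0586 for CD84. Both exceed the distances to CASP4, so which gene is nearest is uncertain. SEMA4B was nearest to UCK2, a uridine-cytidine kinase, at 0.028 and to ITGAL at 0.042, with a median of 0.13 over the 442. UCK2 read -0.11 on array A, and the distances rest on 4 arrays that share pools. Among the 8, CD84 and IFNGR2 were 0.2 apart.

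The place of an element in the list of spots was considered beside its ratio. On array A the median of the 27 elements around TREM1 was 0.021, so TREM1 at 0.025 stood 0.0038 above its surroundings. IRAK4 stood in surroundings of -0.017 and CD37 in surroundings of -0.032. Both elements beside ITGAL, which are unnamed, read -0.045 and -0.066, and the neighbours of CD37 read -0.028 and, for the acetyltransferase NAT10, -0.06. With the local median taken away ITGAL stood at -0.087, CD84 at -0.13, CD37 at -0.105, SEMA4B at -0.12 and IFNGR2 at 0.048. The element before IFNGR2, which is unnamed, read 0.0365 on the same array. The element after IFNGR2 belongs to TGFBR2, the type II receptor of TGF-beta, and read 0.01 there. On array C the median around CD84 was 0.018, so that the 0.017 of CD84 did not stand out from its surroundings, while TREM1 was 0.033 and IFNGR2 0.021 below theirs.

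Other genes of the same pathways were taken from 6 lists of 266 genes in all, of which 16 were named on the array by 22 elements. None passed an adjusted p of 0.05 in any of the 6 comparisons. For day 0.25 minus day -7, 3 of the 16 had positive and 13 negative values, with a median of -0.018 (-0.00064 over all elements). At an unadjusted p below 0.05 there were 5 of the 22 elements, 1 each of RELA, NFKBIE, MAP2K7, PTPRCAP and TSPAN14, where 12.1% of all elements passed.

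Behind IL1R1 and IRAK4, the list of interleukin-1 and Toll-like receptor signalling held NFKB1, RELA, NFKBIE and MAP2K7. The NF-kB subunits RELA and NFKB1 had fitted differences of -0.071 ± 0.023 and -0.035 ± 0.033 for day 0.25 minus day -7 (SE). The NF-kB inhibitor NFKBIE and MAP2K7, a kinase that activates JNK, had 0.056 ± 0.025 and 0.049 ± 0.022 (SE). The list thus had 2 genes on each side of 0, while IL1R1 and IRAK4 both had negative values. On array A NFKB1 read -0.0831 and NFKBIE 0.0809. Along the other arrays, without array A, their values were opposite in sign, at 0.109 and -0.0209. RELA, at -0.0858 and -0.0285, and MAP2K7, at 0.0551 and 0.0298, kept their signs. The SD between spots on array A was 0.0927 for NFKBIE and 0.116 for MAP2K7, larger than their ratios. For NFKB1 and RELA it was 0.018 and 0.0349, smaller than the size of theirs.

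For IFNGR2, the list of interferon and cytokine receptor JAK-STAT signalling held STAT6, PTPN2 and TRAF1. STAT6 is the transcription factor of interleukin-4 signalling, PTPN2 a phosphatase that acts on JAK kinases, and TRAF1 an adaptor of TNF receptors. Their fitted differences for day 0.25 minus day -7 were -0.0034 ± 0.022, -0.028 ± 0.022 and -0.033 ± 0.022 (SE). All 3 were opposite in sign to the 0.042 ± 0.024 of IFNGR2, with STAT6 within its SE of 0. Along the other 3 arrays, without array A, IFNGR2 came to -0.012, PTPN2 to -0.058, TRAF1 to -0.0265 and STAT6 to 0.0091.

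For integrin adhesion the list held APBB1IP, which links RAP1 to the activation of integrins such as LFA-1, and the small GTPase CDC42. They stood at -0.0029 ± 0.022 and -0.033 ± 0.023 for day 0.25 minus day -7 (SE), against -0.073 ± 0.024 for ITGAL. CDC42 is the element that follows SEMA4B in the list of spots, and its ratio was -0.047 on array A. The list of adaptors of activating and SLAM receptors held GRB2, INPP5D, PTPRCAP and CD2BP2. The adaptor GRB2 stood at -0.019 ± 0.022, the inositol phosphatase INPP5D at -0.012 ± 0.022 and CD2BP2, which binds the tail of CD2, at -0.038 ± 0.023 (SE). PTPRCAP, which associates with the phosphatase CD45, had a mean of -0.018 over its 6 elements, of which 2 were positive.

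Of the other tetraspanins, CD81 stood at -0.0023 ± 0.023 (SE) for day 0.25 minus day -7, and TSPAN14 had a mean of -0.02 over 2 elements of opposite sign. CD37 stood at -0.10 in the same comparison, and at -0.032 without the first spot of each element. The other semaphorin on the array, SEMA4A, had a positive value of 0.034 ± 0.022 where SEMA4B had -0.11 ± 0.023 (SE). On array A SEMA4A read 0.037 and SEMA4B -0.12. CD79B stood at -0.01 ± 0.022 (SE).

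**Figure D5:**
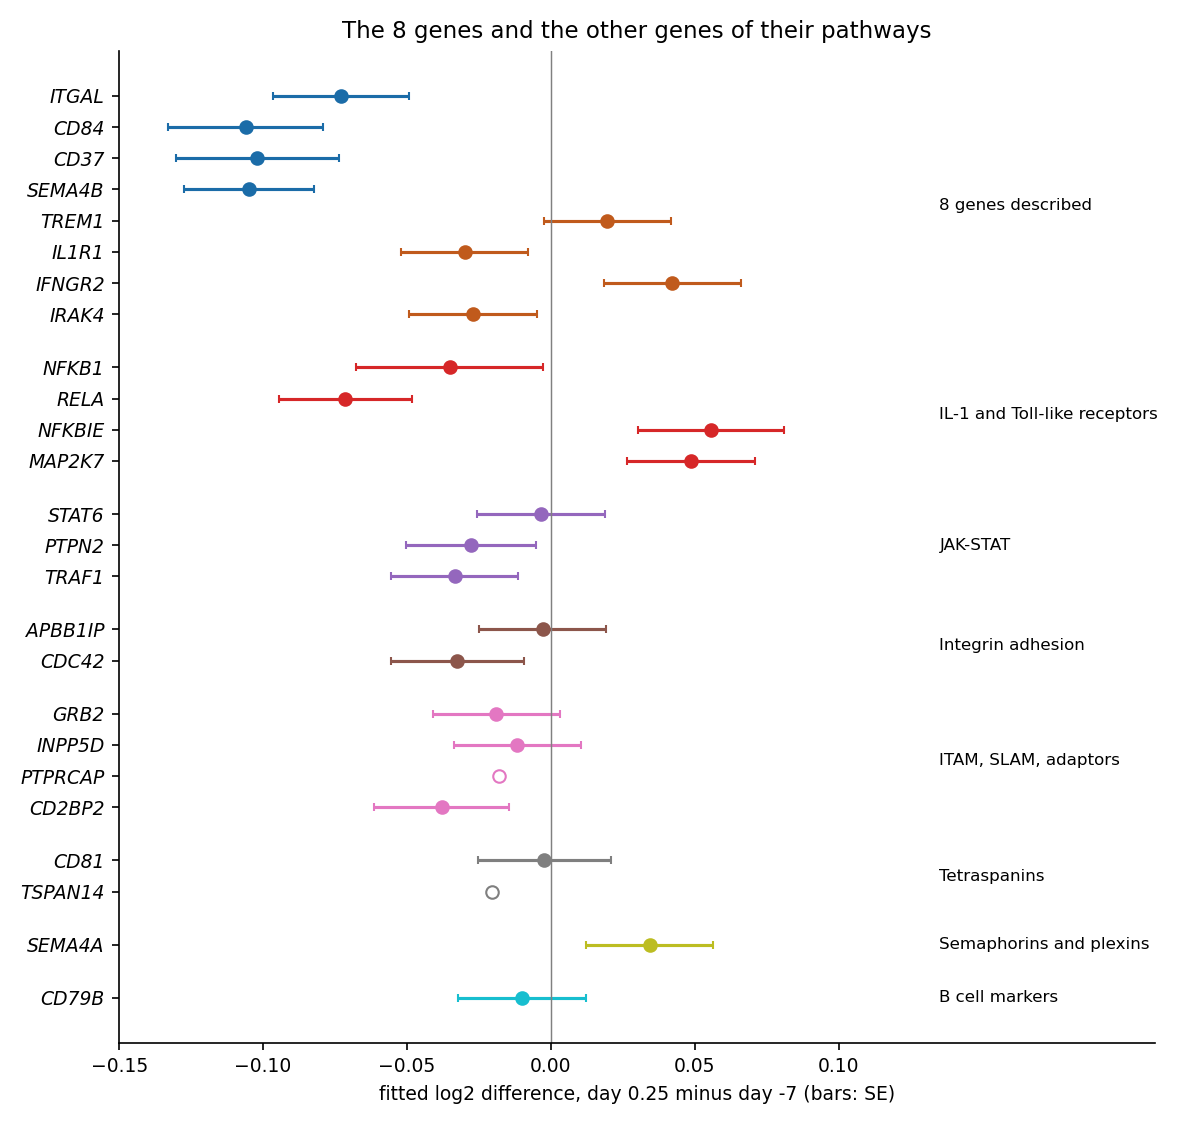
Fitted log2 difference of day 0.25 minus day -7 for the 8 genes, the 16 other genes of their pathway lists and the B cell marker CD79B (bars are SE; open circles are means over several elements, drawn without a bar). SEMA4B lies at -0.11 and SEMA4A at 0.034, and RELA, at -0.071, lies beside ITGAL at -0.073.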

How the data were processed

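The deposited table holds 1 log10 ratio per spot and array. The unit was read from the values, since 10 to the power of 100% of them falls on a multiple of 0.0001 within 0.05 of that step. On the authors' scanning, background correction and normalisation, the direction of the ratios and their scale before the logarithm, nothing is given in the sources used here. The medians of the deposited log10 values, 0.00139, 3e-07, -0.000782 and 8.73e-05 on arrays A to D, lay near 0. On array A 20 spots had no value, none of them of the 8 genes. Only 4 arrays, without intensities, set the precision. Ratios were turned to log2, the 3 spots of an element averaged, and each array centred on its median element. The 3 differences from day -7 were fitted to the 4 arrays with limma 3.58.1 in R 4.3.3, with 1 residual degree of freedom per element and 10.9 from moderation, and Benjamini-Hochberg adjustment over 1295 elements. The fit was tested on simulated data with equal noise on every array and differences of the day 1 pool only. Arrays of unequal spread were not simulated. Figures were drawn with matplotlib 3.10.9.

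The 8 genes, the gene lists and the alternatives were chosen with earlier results of these data known, and the omission of single spots after the values were examined. All 8 genes were named. For the 3 with the largest root mean square ratio the 2 nearest named genes were named, and CD79B and all 16 listed pathway genes on the array. Symbols come from the ARS-UCD2.0 gene table, used for names only. The elements beside a gene were named for their position in the list of spots.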

Additional observations from a re-analysis of the deposited data

How the results depend on the processing

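Of the 8 genes, 1 passed an adjusted p of 0.05 for day 0.25 minus day -7. None of them (0) did so without centring, with the arrays scaled to equal spread, weighted by inverse variance or corrected by the running median, with array A, C or D turned in sign, and without the second or the third spot. There were 2 with the median of the 3 spots (SEMA4B and ITGAL), 3 with array B turned in sign (SEMA4B, CD84 and CD37) and 3 without the first spot (SEMA4B, CD84 and ITGAL). Over these settings SEMA4B ranged in adjusted p from 0.0153 to 0.814, against 0.0371 as reported, and with array A turned in sign its difference was 0.069. The F test called 1 (CD84) with array B turned in sign, and the running median gave 2 on array C over its spots. The causes were not tested.

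Over all elements the counts of 7, 4, 26 and 4 (F test, then day 0, day 0.25 and day 1 minus day -7) were 0 throughout without centring, with the running median, without the third spot, and with any array but array B turned in sign. They were 6, 4, 7 and 4 with the arrays scaled, 3, 5, 0 and 4 with weights, 46, 8, 84 and 31 with array B turned in sign, 25, 9, 73 and 8 without the first spot and 0, 1, 19 and 0 without the second. On array C over its spots the 547 became 317 with the running median.

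For day 0.25 minus day -7, 8 of the 8 genes kept their sign under each alternative except without array A (6 of 8, not CD37 and IFNGR2) and with its sign turned (0 of 8). Without array B, C or D this difference is the value of array A itself, so these settings are no separate check of the sign. For day 0 minus day -7, 6 of the 8 kept their sign without array A and 6 without array D. There were 2 with array A turned in sign and at least 7 under every other alternative. Over all 6 comparisons, 36 of 48 values kept their sign without array A. Without an array there is no residual degree of freedom, so the values without an array have no test. No pairing by cow was possible, because each pool mixed 4 cows and each group is 1 array. Arrays next to each other in the loop share a pool, and the fit rests on these shared pools.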
